A study of Mus musculus with 18 samples.

Results

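The D-type cyclins Ccnd1, Ccnd2 and Ccnd3 and the cyclin kinase inhibitors Cdkn1a (p21), Cdkn1b (p27) and Cdkn1c (p57) were followed by RNA-seq in Thy1+ cells of mouse hearts. The 6 genes were chosen by symbol, after the Ensembl identifiers of the count tables had been matched to mouse gene names. They make up 6 of the 53342 identifiers in the tables. All 6 passed the filter on low counts, together with 15762 genes in all. Each symbol matched 1 identifier.

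Sorting on Thy1, a glycoprotein of the cell surface, enriches cardiac fibroblasts, the cells that build the heart's connective tissue. The labels name the sorted population Thy1+ HE cells or Thy1+HE- cells, and HE is not spelled out. The hearts came from KK/HlJ, C3H/HeJ and C57BL/6 mice. Each strain had ISO groups, which carried pumps with isoproterenol, an agonist of beta-adrenergic receptors, and were taken at day 14 or day 21. The saline group of each strain is labelled sham and has no day, so the same sham libraries served both days. No transgene or deletion is named in the labels, and the labels used here give no age, sex or ISO dose. Each of the 9 groups held 2 libraries, 18 in all. The labels do not say whether the 2 libraries of a group came from separate animals or from pools, and a p-value here reflects library-to-library spread, of which part may be technical.

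D-type cyclins are the regulatory subunits that activate the kinases Cdk4 and Cdk6. The active complexes phosphorylate the retinoblastoma protein and its relatives, which releases E2F factors and lets a cell leave G1 for S phase. Growth factors, adhesion to matrix and Ras-MAPK and Wnt signals raise Ccnd1 transcription in fibroblasts, so the gene is used as a readout of mitogenic input. Inhibitors of the p21, p27 and p57 family bind cyclin and kinase together. They block the kinases that work with cyclins E and A, and p21 and p27 also take part in the assembly of cyclin D complexes. Cdkn1a is the best known transcriptional target of p53, p27 is controlled largely by protein turnover, and Cdkn1c is an imprinted gene expressed from the maternal allele. RNA levels do not show the amount or the phosphorylation of these proteins.

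These coding sequences are shown because they hold the contacts that place the 6 genes in 1 circuit. They are the annotated C57BL/6 sequences of the GENCODE M21 transcripts on GRCm38 (mm10), read 5′ to 3′ on the coding strand, and were not read from these libraries. Capitals in the D-type cyclins mark the 5 codons of the motif through which these cyclins bind the retinoblastoma protein, at codons 5 to 9 of Ccnd1 and codons 3 to 7 of Ccnd2 and Ccnd3.
Ccnd1, codons 1 to 14: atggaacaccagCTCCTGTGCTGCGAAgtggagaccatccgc
Ccnd2, codons 1 to 14: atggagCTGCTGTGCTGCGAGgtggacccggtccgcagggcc
Ccnd3, codons 1 to 14: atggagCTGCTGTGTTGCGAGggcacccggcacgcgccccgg
Capitals in the inhibitors mark the 5 codons of the motif that docks them on the cyclin.
Cdkn1a, codons 14 to 26: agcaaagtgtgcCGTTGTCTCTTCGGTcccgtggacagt
Cdkn1b, codons 26 to 38: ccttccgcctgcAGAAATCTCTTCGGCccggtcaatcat
Cdkn1c, codons 16 to 28: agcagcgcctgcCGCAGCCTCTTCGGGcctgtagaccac
Each motif occurred 1 time in its coding sequence. Of 20867 mouse coding sequences searched the same way, 6.15% held the Rb-binding motif and 0.676% the cyclin-binding motif, and a match is a description, not a proven site. Over aligned coding bases, Ccnd1 was 72.5% identical to Ccnd2 and 68.7% to Ccnd3, and Ccnd2 was 70.6% identical to Ccnd3. No run of 50 bases, the read length, was shared between any 2 of the 3 D-type cyclins.

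On mm10, Ccnd1 (ENSMUSG00000070348) lies at chr7:144929931-144939925 on the minus strand and Cdkn1c (ENSMUSG00000037664) at chr7:143458339-143461050 on the minus strand. Ccnd2 (ENSMUSG00000000184) lies at chr6:127125162-127152193 on the minus strand and Cdkn1b (ENSMUSG00000003031) at chr6:134920401-134925513 on the plus strand. Ccnd3 (ENSMUSG00000034165) spans chr17:47505051-47599691 on the plus strand and Cdkn1a (ENSMUSG00000023067) chr17:29090976-29100727 on the plus strand. All 6 are protein-coding genes.

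The libraries held 7230741 to 26280685 counts. The lowest count of any of the 6 genes in a library was 163, for Ccnd1, in the library with the fewest counts. Reads carry no molecular identifiers, so the number of molecules behind a count is not known. Levels are library-scaled counts (CPM) normalized by edgeR's effective library sizes. Marker genes of cardiac fibroblasts were high everywhere, with the 12 markers summing to 86770 to 129600 CPM by total counts and none at 0, while 5 of 12 lymphocyte markers were at 0 in all 18 libraries. One library, KK/HlJ ISO day 14 replicate 1, had a median correlation with the others under 0.82 and stands apart. Values without it follow the results that rest on it.

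Ccnd1 was the member that differed most between the strains. In KK/HlJ it had 21.2 and 49.2 CPM at ISO day 14, 17.1 and 46.8 CPM at ISO day 21, and 27.2 and 78.1 CPM in sham. In C3H/HeJ it had 51.9 and 59.5 CPM at ISO day 14, 76.8 and 61.4 CPM at ISO day 21, and 17.9 and 33.1 CPM in sham. In C57BL/6 it had 220 and 191 CPM at ISO day 14, 142 and 120 CPM at ISO day 21, and 262 and 133 CPM in sham. All 6 C57BL/6 libraries were above all 12 libraries of the other strains. Of the 15762 genes tested, 24 (0.152%) had all 6 C57BL/6 libraries above the other 12, and 16 (0.102%) had them all below. The 12 include the C3H/HeJ sham libraries whose low level guided the choice of genes, so this count is a description and no support.

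**Figure D1:**
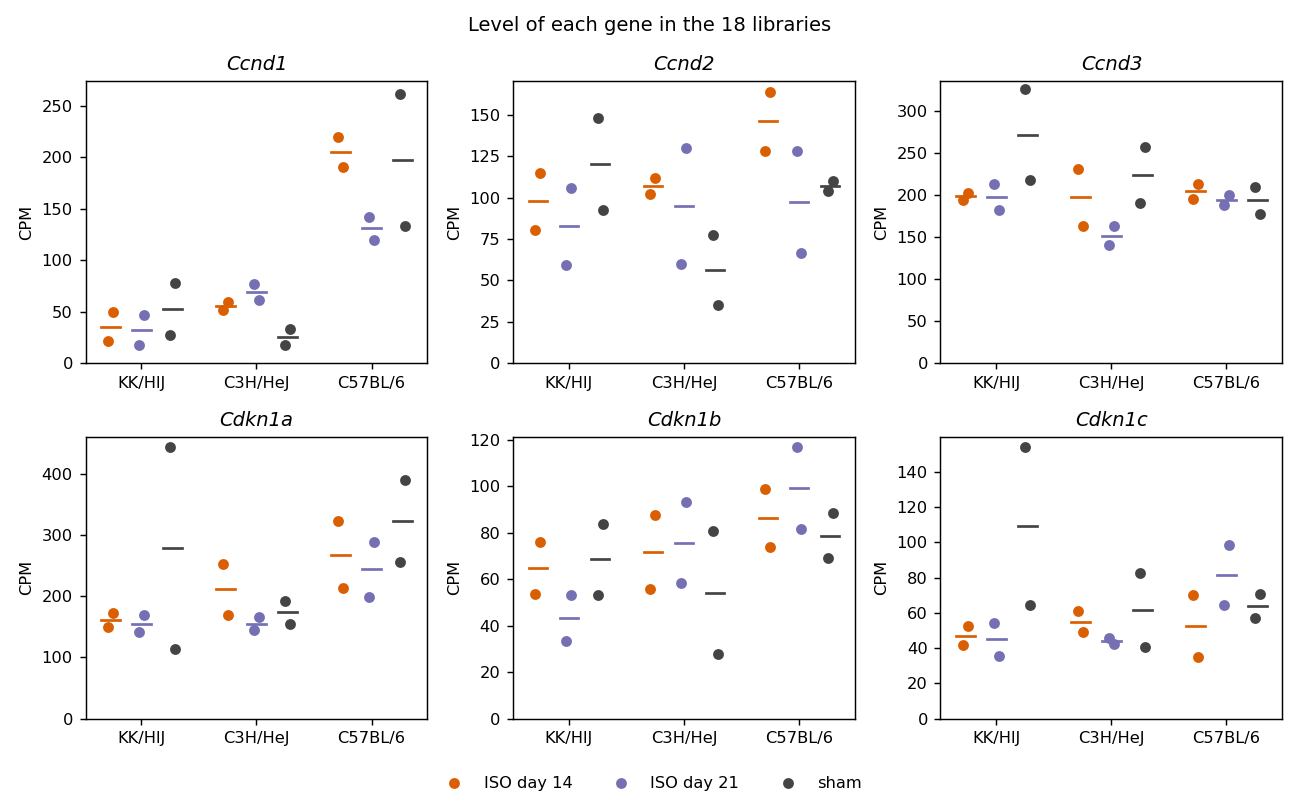
Level of each of the 6 genes (y axis, CPM by edgeR's effective library sizes) in the 18 libraries, with KK/HlJ, C3H/HeJ and C57BL/6 from left to right and ISO day 14, ISO day 21 and sham within each strain; points are libraries and bars are group means of 2. Ccnd1 lies between 120 and 262 CPM in C57BL/6 and at or under 78.1 CPM in the other strains, while Ccnd3 lies between 141 and 327 CPM in all strains.

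Ordered by group mean, the 3 C57BL/6 groups led, with 205 ± 20.9 CPM at ISO day 14, 198 ± 91.3 CPM in sham and 131 ± 15.7 CPM at ISO day 21 (SD, n = 2 each). The C3H/HeJ ISO groups followed, with 69.1 ± 10.9 CPM at day 21 and 55.7 ± 5.42 CPM at day 14. KK/HlJ sham had 52.6 ± 36 CPM, KK/HlJ ISO 35.2 ± 19.8 CPM at day 14 and 31.9 ± 21 CPM at day 21, and C3H/HeJ sham came last with 25.5 ± 10.7 CPM. Of the neighbours in this order, only C57BL/6 ISO day 21 over C3H/HeJ ISO day 21, and C3H/HeJ ISO day 21 over C3H/HeJ ISO day 14, had libraries that did not overlap.

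In the ISO hearts, Ccnd1 was lower in KK/HlJ than in C57BL/6. It averaged 33.5 ± 16.8 CPM in KK/HlJ and 168 ± 45.6 CPM in C57BL/6 (SD, n = 4 each, days combined). The log2 fold change was -2.29 (SE 0.394, 95% interval -3.11 to -1.47, adjusted p = 0.0128, edgeR's quasi-likelihood test with Benjamini-Hochberg adjustment). All 4 KK/HlJ libraries were below all 4 C57BL/6 libraries. Ccnd1 was 1 of 6 members called in this comparison, against 22 of 15762 genes (0.14%), of which 6 were lower. In bulk RNA, fewer cells that express a gene and less RNA per cell cannot be told apart. Reads were aligned to mm10, which derives from C57BL/6, so reads of the other strains that carry variants can be lost. The part of such loss in the Ccnd1 difference was not tested. The call was lost at adjusted p of 0.0644 to 0.121 in edgeR when 1 of 5 libraries was left out: C57BL/6 ISO day 14 replicate 1 (0.0644) or replicate 2 (0.0651), C57BL/6 ISO day 21 replicate 1 (0.121), KK/HlJ ISO day 21 replicate 1 (0.0853), or the library that stands apart (0.1). Without the last, the log2 fold change was -2.05. In the sham hearts the same pair differed by -1.91 (SE 0.549, 95% interval -3.06 to -0.76), with 27.2 and 78.1 CPM in KK/HlJ against 262 and 133 CPM in C57BL/6. That difference missed the threshold (edgeR, adjusted p = 0.643, unadjusted p = 0.00241). It passed when no low genes were filtered (edgeR adjusted p = 0.0197), at a log2 fold change of -1.92. Prior degrees of freedom set how far each gene's spread is drawn to a common trend. Their median was infinite in that fit, against 13.1 as reported. The C3H/HeJ sham level that guided the choice of genes is low beside these same C57BL/6 sham libraries. The sham difference is therefore no separate support. In sham KK/HlJ against sham C57BL/6, 8 genes (0.0508%) were called, and none of the 6 members.

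C3H/HeJ also lay under C57BL/6 for Ccnd1 in ISO hearts. The means were 62.4 ± 10.4 CPM in C3H/HeJ and 168 ± 45.6 CPM in C57BL/6 (SD, n = 4 each), and every C3H/HeJ library was below every C57BL/6 library. The log2 fold change of -1.4 (SE 0.383, 95% interval -2.2 to -0.6) did not pass over all genes in edgeR (adjusted p = 0.243, unadjusted p = 0.00156). It did pass under 5 other settings. The adjusted p was 0.0374 with DESeq2, 0.00515 with no filter on low counts and 0.00611 with limma voom and library weights. It was 0.00174 without the 4 libraries least like the others and 0.0136 with offsets for gene length and GC content. The fit with no filter is again the one whose prior degrees of freedom had an infinite median. In this comparison 35 genes (0.222%) were called, none of them a member. Set against each other in ISO hearts, KK/HlJ and C3H/HeJ differed by -0.89 for Ccnd1 (SE 0.38, edgeR adjusted p = 1, unadjusted p = 0.03). The 4 KK/HlJ libraries, at 17.1 to 49.2 CPM, were all below the 4 C3H/HeJ libraries, at 51.9 to 76.8 CPM. In that pair 39 genes (0.247%) were called and none of the members.

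The low sham level of Ccnd1 in C3H/HeJ was part of the reason for choosing these genes, so comparisons with it are given as values without a test. The 2 C3H/HeJ sham libraries had 17.9 and 33.1 CPM, which are 228 and 579 counts, against 262 and 133 CPM in C57BL/6 sham, which are 6860 and 3481 counts. The fitted log2 difference was -2.95. It was 1.04 for KK/HlJ over C3H/HeJ in sham, where the groups overlap. Over all genes, 16 (0.102%) were called in sham C3H/HeJ against sham C57BL/6, where none of the 5 members other than Ccnd1 was called. In sham KK/HlJ against sham C3H/HeJ, 24 genes (0.152%) were called, and none of those 5. The ratio of mean CPM, C57BL/6 over the other strain, was 5.01 for KK/HlJ and 2.69 for C3H/HeJ in ISO hearts, and 3.76 for KK/HlJ and 7.75 for C3H/HeJ in sham hearts.

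**Figure D2:**
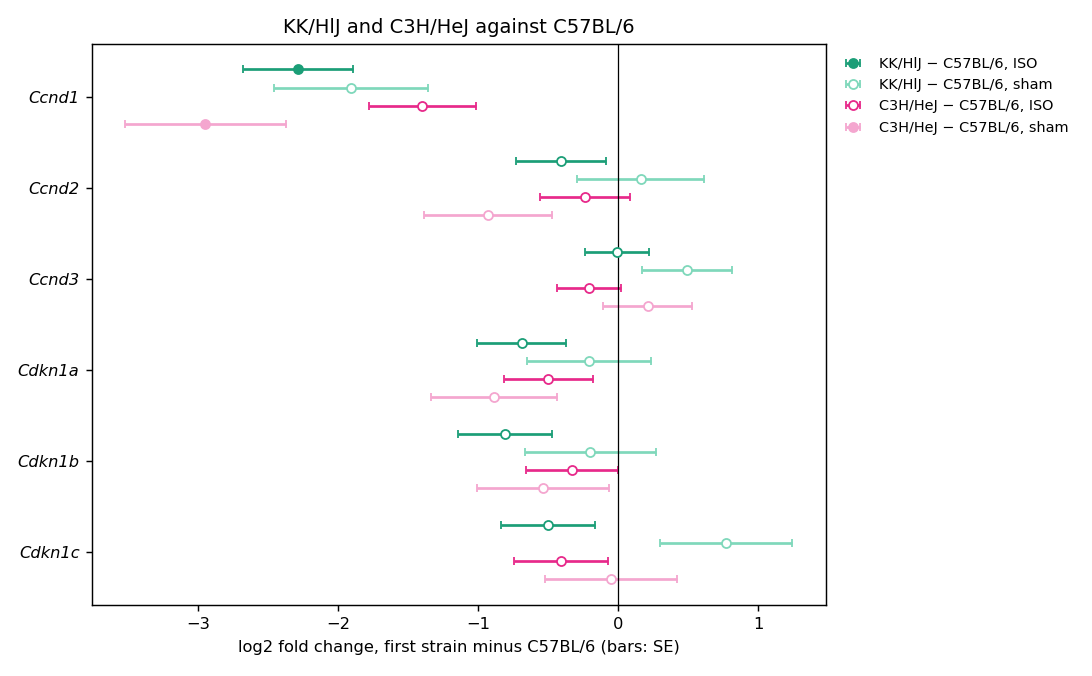
Log2 fold change (x axis, with SE) of each gene (y axis) in KK/HlJ and in C3H/HeJ against C57BL/6, in ISO and in sham hearts. Filled points have an adjusted p under 0.05 in edgeR. Ccnd1 sits at -2.29, -1.4, -1.91 and -2.95, to the left of the other genes. The C3H/HeJ sham point is a description whatever its fill, since that level guided the choice of genes.

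Ccnd2, the cyclin D that responds to several growth and differentiation signals, varied less between strains. In KK/HlJ it had 80.4 and 115 CPM at ISO day 14, 59.5 and 106 CPM at ISO day 21, and 148 and 92.3 CPM in sham. In C3H/HeJ it had 102 and 112 CPM at ISO day 14, 59.9 and 130 CPM at ISO day 21, and 77.4 and 35.2 CPM in sham. In C57BL/6 it had 128 and 164 CPM at ISO day 14, 128 and 66.5 CPM at ISO day 21, and 104 and 110 CPM in sham. Both C3H/HeJ sham libraries were below both sham libraries of each other strain, while the ISO libraries overlapped between all strains. The sham differences were -0.93 for C3H/HeJ against C57BL/6 (SE 0.459, edgeR adjusted p = 0.947, unadjusted p = 0.0543) and 1.09 for KK/HlJ against C3H/HeJ (SE 0.46, edgeR adjusted p = 0.718, unadjusted p = 0.0266). Group means ranged from 56.3 ± 29.8 CPM in C3H/HeJ sham to 146 ± 25.6 CPM in C57BL/6 ISO day 14 (SD, n = 2 each), and no neighbours in that order were free of overlap. Neither sham difference passed the threshold, and that of C3H/HeJ against C57BL/6 was 0.01 with offsets for gene length and GC content.

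Ccnd3, the cyclin D found in many differentiated tissues, was the most even of the 6. In KK/HlJ it had 195 and 203 CPM at ISO day 14, 213 and 182 CPM at ISO day 21, and 327 and 218 CPM in sham. C3H/HeJ libraries had 232 and 164 CPM at ISO day 14, 141 and 163 CPM at ISO day 21, and 191 and 258 CPM in sham. C57BL/6 libraries had 196 and 214 CPM at ISO day 14, 189 and 200 CPM at ISO day 21, and 210 and 178 CPM in sham. Group means ranged from 152 ± 16 CPM in C3H/HeJ ISO day 21 to 272 ± 77.4 CPM in KK/HlJ sham (SD, n = 2 each), and only C3H/HeJ ISO day 21 was clear of its neighbour, C57BL/6 sham. The highest of the 18 libraries was 2.33 times the lowest, against 15.3 times for Ccnd1. Both KK/HlJ sham libraries were above both C57BL/6 sham libraries, by 0.49 (SE 0.32, edgeR adjusted p = 0.968).

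Per kilobase of exon, the make-up of the D-type cyclins differed by strain. The length used was that of all annotated exons of a gene, merged over its transcripts. It was 4709 bases for Ccnd1 (3 transcripts), 9409 for Ccnd2 (8) and 8775 for Ccnd3 (21). Which transcripts these cells express was not examined, so shares between genes depend on this length. Ccnd1 made up 9.81 to 32.4% of the 3 D-type cyclins in the 6 KK/HlJ libraries (median 17.8%), 11.2 to 42.2% in C3H/HeJ (median 25.8%) and 46 to 61.4% in C57BL/6 (median 48%). Ccnd3 made up 48.5 to 70.9% in KK/HlJ, 40.9 to 73.2% in C3H/HeJ and 26.4 to 41.3% in C57BL/6. By this measure Ccnd1 was the largest D-type cyclin in C57BL/6 and Ccnd3 the largest by median in the others. By CPM, without length, the 6 C57BL/6 libraries averaged 198 for Ccnd3 and 178 for Ccnd1. The summed level of all 3 was 34.2 to 58.8 CPM per kilobase in KK/HlJ, 33.8 to 48.2 in C3H/HeJ and 55.3 to 90.7 in C57BL/6. These shares follow from the Ccnd1 values above and are no separate support for them.

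**Figure D3:**
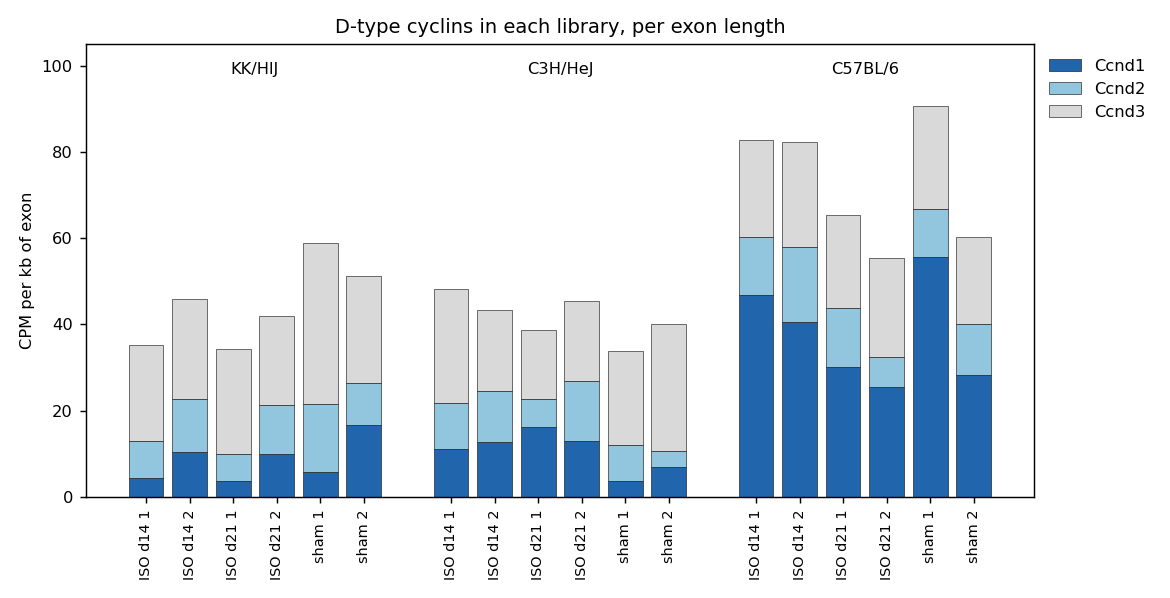
Stacked bars, 1 per library, of Ccnd1, Ccnd2 and Ccnd3, ordered KK/HlJ, C3H/HeJ and C57BL/6 with ISO before sham. The y axis is CPM per kilobase of all annotated exons, merged over transcripts. Ccnd1 takes 46 to 61.4% of the bar in C57BL/6 and at most 42.2% in the other strains.

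The inhibitors were all expressed. Cdkn1a, which halts the cycle after p53 activation and other stresses, had the highest level per kilobase of the 3, at 38.8 to 66.9% of their sum over the 18 libraries. In KK/HlJ it had 149 and 173 CPM at ISO day 14, 141 and 169 CPM at ISO day 21, and 444 and 113 CPM in sham. In C3H/HeJ it had 252 and 170 CPM at ISO day 14, 144 and 166 CPM at ISO day 21, and 192 and 155 CPM in sham. In C57BL/6 it had 322 and 213 CPM at ISO day 14, 198 and 289 CPM at ISO day 21, and 256 and 389 CPM in sham. The KK/HlJ sham libraries hold both the highest and the lowest value of the 18, a ratio of 3.94. Group means ranged from 155 ± 19.9 CPM in KK/HlJ ISO day 21 to 323 ± 93.6 CPM in C57BL/6 sham (SD, n = 2 each), with overlap between all neighbours. In ISO hearts all KK/HlJ libraries were below all C57BL/6 libraries, by -0.69 (SE 0.317, edgeR adjusted p = 0.806, unadjusted p = 0.0407). In sham hearts both C3H/HeJ libraries were below both C57BL/6 libraries, by -0.89 (SE 0.45, edgeR adjusted p = 0.947).

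Cdkn1b, which holds resting cells in G1, had 53.5 and 76.1 CPM at ISO day 14, 33.4 and 53.2 CPM at ISO day 21, and 53.4 and 84 CPM in sham of KK/HlJ. The C3H/HeJ libraries had 56 and 87.5 CPM at ISO day 14, 58.2 and 93.2 CPM at ISO day 21, and 80.7 and 27.8 CPM in sham. The C57BL/6 libraries had 99 and 74.1 CPM at ISO day 14, 117 and 81.5 CPM at ISO day 21, and 69 and 88.7 CPM in sham. Group means ranged from 43.3 ± 14 CPM in KK/HlJ ISO day 21 to 99.1 ± 25 CPM in C57BL/6 ISO day 21 (SD, n = 2 each), and all neighbours overlapped. ISO libraries of KK/HlJ averaged 54.1 ± 17.4 CPM and those of C57BL/6 92.8 ± 19.1 CPM (SD, n = 4 each), and the groups overlap. The log2 fold change of -0.81 (SE 0.334) did not pass over all genes (edgeR adjusted p = 0.806, unadjusted p = 0.0244).

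Cdkn1c, a brake on proliferation in development, had 41.6 and 52.6 CPM at ISO day 14, 54.1 and 35.7 CPM at ISO day 21, and 154 and 64.5 CPM in sham of KK/HlJ. In C3H/HeJ it had 61.1 and 48.9 CPM at ISO day 14, 46 and 42.3 CPM at ISO day 21, and 82.7 and 40.8 CPM in sham. In C57BL/6 it had 70.1 and 34.7 CPM at ISO day 14, 64.3 and 98.3 CPM at ISO day 21, and 56.9 and 70.6 CPM in sham. Group means ranged from 44.2 ± 2.63 CPM in C3H/HeJ ISO day 21 to 109 ± 63.1 CPM in KK/HlJ sham (SD, n = 2 each), and all neighbours overlapped. The groups of the 3 strains overlapped in ISO and in sham hearts. Per kilobase of merged annotated exons, the 3 inhibitors together stood at 1.13 to 3.61 times the 3 D-type cyclins over the 18 libraries. This ratio depends on those lengths too.

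Counted over the members, non-overlap between 2 sham groups of 2 libraries each is a weak mark. In sham C3H/HeJ against sham C57BL/6, 2 of the 5 members other than Ccnd1 (Ccnd2 and Cdkn1a) were lower without overlap, and 22.1% of all genes tested were so. Ccnd1 was lower without overlap too, but is left out of that count because its C3H/HeJ sham level guided the choice of genes. In sham KK/HlJ against sham C57BL/6, 1 member (Ccnd1) was lower without overlap, against 22.1% of all genes, and 1 (Ccnd3) was higher, against 11.3%. The Ccnd1 part is a description here too, since it uses the C57BL/6 sham libraries beside which C3H/HeJ sham is low. In sham KK/HlJ against sham C3H/HeJ, 1 member (Ccnd2) was higher, against 11.3%. Among the ISO libraries, 4 a strain, non-overlap was rarer. Only Ccnd1 was lower without overlap in C3H/HeJ against C57BL/6, against 2.21% of all genes. Ccnd1 and Cdkn1a were lower in KK/HlJ against C57BL/6, against 2.21%, and Ccnd1 alone in KK/HlJ against C3H/HeJ, against 2.35%.

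ISO did not change any of the 6 genes past the threshold in any strain. Averaged over the strains and days, the log2 change of ISO over sham was 0.12 for Ccnd1, 0.19 for Ccnd2, -0.26 for Ccnd3, -0.37 for Cdkn1a, 0.1 for Cdkn1b and -0.51 for Cdkn1c. The 95% intervals ran from -0.44 to 0.68 for Ccnd1, from -0.28 to 0.67 for Ccnd2 and from -0.59 to 0.06 for Ccnd3. For the inhibitors they ran from -0.82 to 0.09 for Cdkn1a, from -0.39 to 0.59 for Cdkn1b and from -0.99 to -0.03 for Cdkn1c. In this comparison 9 of 15762 genes (0.0571%) were called in edgeR. None was a member. Of the members, Cdkn1c alone was under 0.05 before adjustment (edgeR, unadjusted p = 0.0381, adjusted p = 0.72). Its change was -0.26 without KK/HlJ sham replicate 1.

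By strain, the values ran in different directions. In KK/HlJ the ISO mean was below the sham mean for all 6 genes. For Cdkn1c the 4 ISO libraries had 35.7 to 54.1 CPM, below both sham libraries at 154 and 64.5 CPM, with a log2 change of -1.25 (SE 0.395, edgeR adjusted p = 0.563, unadjusted p = 0.00464). Without KK/HlJ sham replicate 1 the change was -0.5, and without replicate 2 it was -1.74 and past the threshold (adjusted p = 0.0478). All 4 ISO libraries of Ccnd3 lay under both of its sham libraries too, by -0.46 (SE 0.273, edgeR adjusted p = 0.773). Over all genes, 5.74% were lower without overlap in KK/HlJ ISO against sham, and 0 of 15762 (0%) were called by edgeR, with 1048 at an unadjusted p under 0.05 and 251 called by DESeq2, none of them a member. Of the members, 2 had an unadjusted p under 0.05, Cdkn1c and Cdkn1a. Cdkn1a changed by -0.82 (SE 0.377, edgeR adjusted p = 0.725), by 0.48 without sham replicate 1 and by -1.49 (adjusted p = 0.0298) without sham replicate 2. Its direction thus rested on 1 sham library at 444 CPM. Ccnd1 changed by -0.65 (SE 0.453, edgeR adjusted p = 0.773), and by 0.3 without sham replicate 2.

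In C3H/HeJ, Ccnd1 and Ccnd2 had higher means in ISO than in sham. Ccnd1 had 51.9 to 76.8 CPM in the 4 ISO libraries, all above both sham libraries at 17.9 and 33.1 CPM, a log2 change of 1.28 that is given without a test. Over all genes, 10.4% were higher without overlap in that comparison and 1 gene (0.00634%) was called. Ccnd2 had 59.9 to 130 CPM in ISO and 77.4 and 35.2 CPM in sham, with 3 of 4 ISO libraries above both sham libraries. Its change of 0.84 (SE 0.409, edgeR adjusted p = 0.761, unadjusted p = 0.0521) did not pass, and it was -0.14 with offsets for gene length and GC content. Cdkn1b changed by 0.44, Cdkn1a by 0.06, Cdkn1c by -0.32 and Ccnd3 by -0.37, none past the threshold.

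In C57BL/6 the changes were small beside their errors. They were -0.27 (SE 0.455) for Ccnd1, 0.15 (SE 0.396) for Ccnd2, 0.04 (SE 0.277) for Ccnd3, -0.34 (SE 0.382) for Cdkn1a, 0.23 (SE 0.409) for Cdkn1b and 0.03 (SE 0.409) for Cdkn1c. No member had all 4 ISO libraries on 1 side of both sham libraries. Over all genes edgeR called 0 (0%), with 339 at an unadjusted p under 0.05, none of them a member, and DESeq2 called 4.

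**Figure D4:**
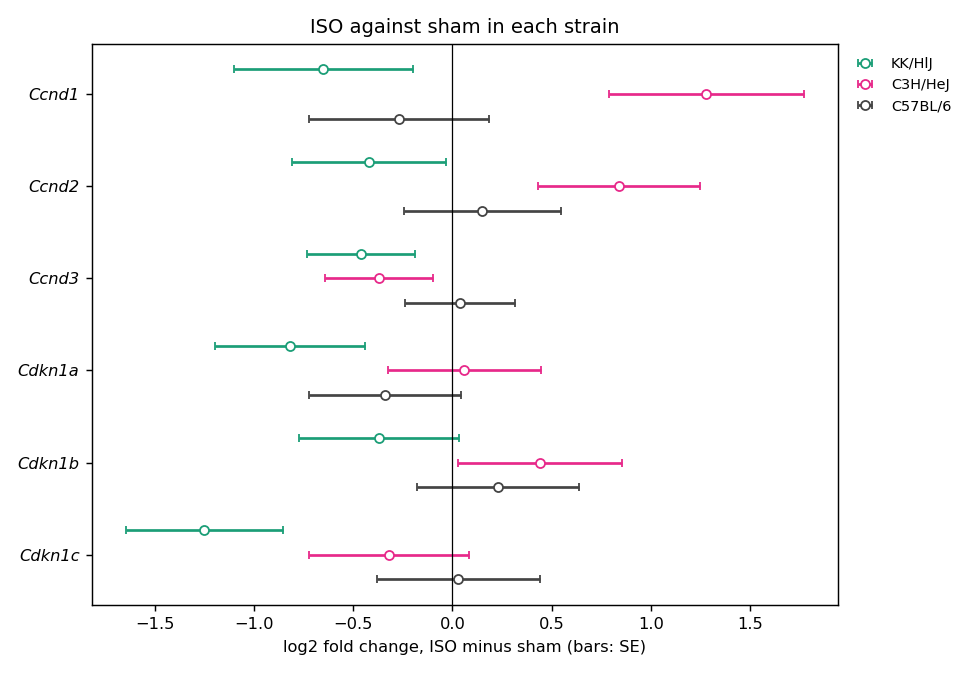
Log2 fold change of ISO over sham, days averaged (x axis, with SE), for the 6 genes (y axis) in KK/HlJ, C3H/HeJ and C57BL/6. Open points are not past the adjusted p of 0.05 in edgeR. Ccnd1 is at -0.65 in KK/HlJ, 1.28 in C3H/HeJ and -0.27 in C57BL/6, and Cdkn1c at -1.25, -0.32 and 0.03.

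Day 21 and day 14 of ISO did not differ past the threshold for any of the 6 genes. The log2 change of day 21 over day 14, averaged over the strains, was -0.16 for Ccnd1, -0.33 for Ccnd2, -0.16 for Ccnd3, -0.21 for Cdkn1a, -0.1 for Cdkn1b and 0.08 for Cdkn1c. Over all genes edgeR called 0 (0%), with 293 at an unadjusted p under 0.05, none of them a member, and DESeq2 called 1. Within C57BL/6, both day 21 libraries of Ccnd1, at 142 and 120 CPM, were below both day 14 libraries, at 220 and 191 CPM. Within C3H/HeJ they were above, at 76.8 and 61.4 CPM against 51.9 and 59.5 CPM, and within KK/HlJ the days overlapped. Other members were lower at day 21 without overlap. In C3H/HeJ these were Ccnd3 (141 and 163 against 232 and 164 CPM) and Cdkn1a (144 and 166 against 252 and 170 CPM). Cdkn1c was too (46 and 42.3 against 61.1 and 48.9 CPM), as was Cdkn1b in KK/HlJ (33.4 and 53.2 against 53.5 and 76.1 CPM). Several of these gaps were near ties, with 163 against 164 CPM for Ccnd3, 166 against 170 CPM for Cdkn1a and 53.2 against 53.5 CPM for Cdkn1b. In every other pairing of a member and a strain the days overlapped. Non-overlap between so few libraries is a weak mark, and the share of all genes with it is not given. Without that share, no change with day is drawn from it for any member, Ccnd1 included.

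The test of the difference between 2 strains' ISO responses called 0 genes (0%) in each of the 3 pairs by edgeR. At an unadjusted p under 0.05 there were 562 genes for C3H/HeJ against C57BL/6, 806 for KK/HlJ against C57BL/6 and 659 for KK/HlJ against C3H/HeJ, and DESeq2 called 8, 63 and 47 in the same order, none of them a member. Each strain's sham libraries enter 2 of the pairs, so the pairs are not independent. The response of Ccnd1 in KK/HlJ differed from that in C57BL/6 by -0.38 (SE 0.652, edgeR adjusted p = 1). Its differences that involve C3H/HeJ are values only, 1.55 for C3H/HeJ minus C57BL/6 and -1.93 for KK/HlJ minus C3H/HeJ. For Cdkn1c, KK/HlJ minus C57BL/6 was -1.28 (SE 0.581, edgeR adjusted p = 0.93, unadjusted p = 0.0383), and for Ccnd2, KK/HlJ minus C3H/HeJ was -1.26 (SE 0.56, edgeR adjusted p = 1, unadjusted p = 0.0351). The median over all genes was 0.18 in the pairs against C57BL/6.

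Without the library that stands apart, values that use KK/HlJ ISO moved by at most 0.24. For Ccnd1, KK/HlJ against C3H/HeJ in ISO was -0.65, ISO over sham in KK/HlJ -0.41, and the response differences of KK/HlJ were -0.14 against C57BL/6 and -1.69 against C3H/HeJ. ISO over sham in KK/HlJ was -0.3 for Ccnd2, -0.44 for Ccnd3, -0.77 for Cdkn1a, -0.26 for Cdkn1b and -1.17 for Cdkn1c. KK/HlJ against C57BL/6 in ISO was -0.29 for Ccnd2, -0.64 for Cdkn1a, -0.69 for Cdkn1b and -0.43 for Cdkn1c. No member was called in these comparisons without it.

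The spread between the 2 libraries of a group was as wide as most of these differences. The higher library of a group was by median 1.85 times the lower for Ccnd1, 1.6 for Ccnd2, 1.17 for Ccnd3, 1.46 for Cdkn1a, 1.56 for Cdkn1b and 1.52 for Cdkn1c. The widest pairs were all sham. KK/HlJ sham had the widest pair for Ccnd1 (2.87 times), Ccnd3 (1.5), Cdkn1a (3.94) and Cdkn1c (2.38), and C3H/HeJ sham for Ccnd2 (2.2) and Cdkn1b (2.91).

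**Figure D5:**
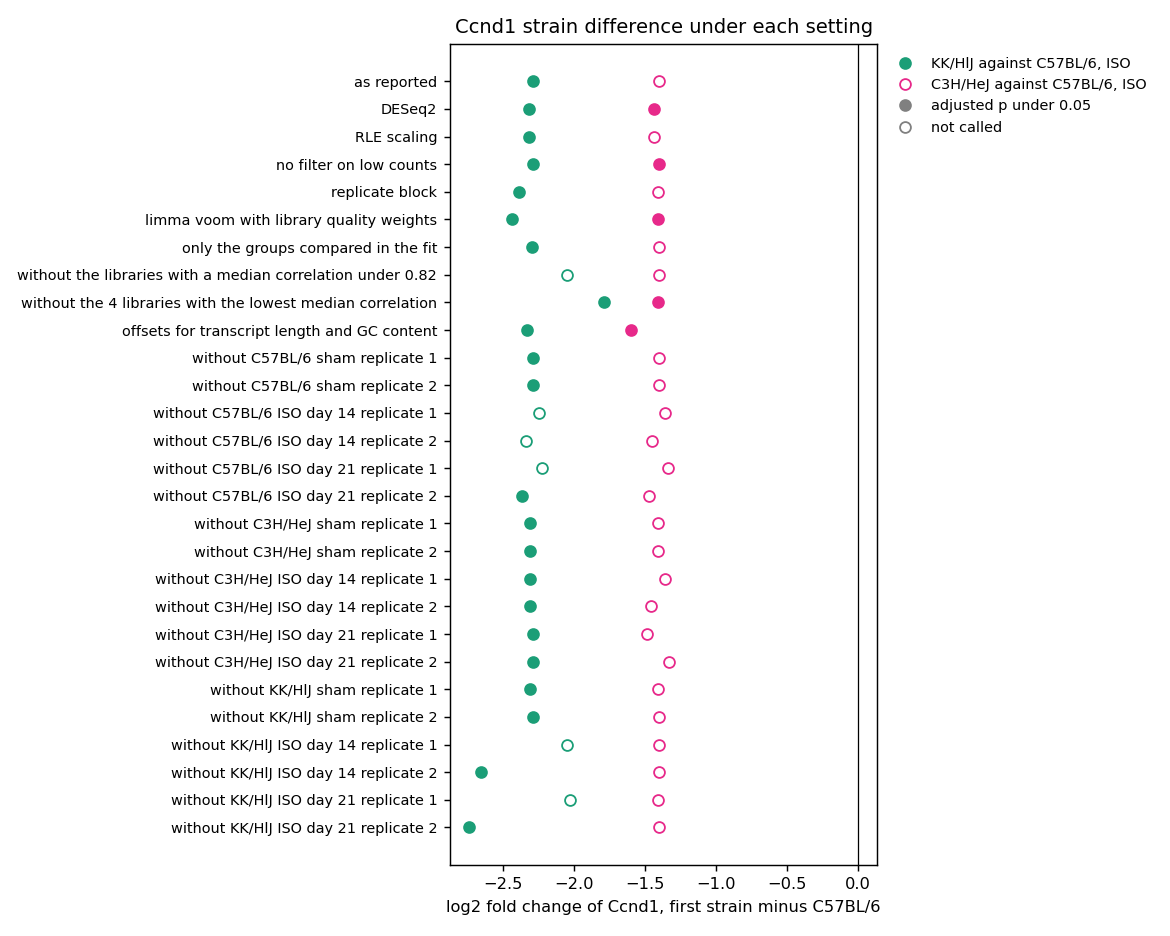
Log2 fold change of Ccnd1 in ISO hearts (x axis) for KK/HlJ and C3H/HeJ against C57BL/6 under each processing setting and with each library left out (y axis); filled points have an adjusted p under 0.05. All values lie below 0, around -2.29 for KK/HlJ and -1.4 for C3H/HeJ, while the calls differ between settings.

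The genes around the 6 in the pathway were read from 9 lists, with 133 genes of which 128 were tested. Only 1 of the 128, Mcm6, was called in any of the 14 comparisons. Its calls were in KK/HlJ against C57BL/6 in ISO, where 22 of 15762 genes (0.14%) were called, and in KK/HlJ against C3H/HeJ in ISO, where 39 (0.247%) were. The share of all genes called in at least 1 of the 14 was not counted, so 1 of 128 is a description. None of the 5 kinases and pocket proteins was called. Cdk4 had 128 to 220 CPM over the 18 libraries and Cdk6 averaged 20.8 CPM. The pocket proteins Rbl2, Rb1 and Rbl1, the retinoblastoma family, averaged 54.9, 14.4 and 3.13 CPM. Levels of list genes are not per length and are not compared between genes. In KK/HlJ against C57BL/6 in ISO hearts the median log2 change of these 5 was 0.17, and in C3H/HeJ against C57BL/6 it was 0.19, where Ccnd1 had -2.29 and -1.4. Over all genes the medians were 0 and 0.03. Of the INK4 inhibitors, which act on Cdk4 and Cdk6 alone, 3 of 4 were tested and none was called. Cdkn2c averaged 39.2 CPM, Cdkn2d 23.6 CPM and Cdkn2b 3.21 CPM, and Cdkn2a did not pass the filter.

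The genes of the later cycle were low. Of the 8 genes of the E, A and B cyclins with Cdk2 and Cdk1, 7 averaged under 5 CPM and 6 were at 0 in at least 1 library. Of the 26 S phase and mitosis genes, 16 averaged under 5 CPM and 17 were at 0 in at least 1 library. Mki67, the standard marker of cycling cells, had 0 to 94 counts and averaged 1.33 CPM. Ccnb1, the cyclin of mitotic entry, had 0 to 31 counts, and Top2a, the topoisomerase of dividing cells, 0 to 244 counts. These 3 were singled out after their values were seen. Pcna, the sliding clamp of DNA polymerase, was counted in every library at 16.1 to 68.3 CPM, and Rrm1, a subunit of ribonucleotide reductase, averaged 57.1 CPM. In ISO over sham, averaged over strains, 19 of the 26 had a positive value with a median of 0.68, against 0.03 over all genes. None was called by edgeR, and 1 of 26 had an unadjusted p under 0.05.

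Mcm6, a subunit of the helicase that unwinds DNA in S phase, was lower in KK/HlJ. Its ISO libraries had 8.4 to 19.9 CPM in KK/HlJ, 43 to 72.7 CPM in C3H/HeJ and 39.1 to 64.9 CPM in C57BL/6, without overlap of KK/HlJ with the others. The log2 fold change in ISO was -2.15 against C57BL/6 (SE 0.375, adjusted p = 0.0115) and -2.3 against C3H/HeJ (SE 0.377, adjusted p = 0.00298), both by edgeR. With limma voom and library weights neither passed (adjusted p = 0.127 against C57BL/6 and 0.0565 against C3H/HeJ). Against C57BL/6 the call was also lost without C57BL/6 ISO day 14 replicate 2 (edgeR adjusted p = 0.0725), C57BL/6 ISO day 21 replicate 1 (0.0893) or KK/HlJ ISO day 21 replicate 1 (0.1). Without the library that stands apart the changes were -2.52 and -2.67, both called. In sham the 2 KK/HlJ libraries had 9.51 and 9.92 CPM, against 23.3 to 56.6 CPM in C3H/HeJ and 32.9 to 34.1 CPM in C57BL/6. The other 25 genes of its list were not called, with a median over the list of -0.52 in KK/HlJ against C57BL/6.

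None of the 20 p53 target genes, where Cdkn1a belongs, was called in any comparison. Among them Btg2, an antiproliferative factor, averaged 1230 CPM and Ccng1, cyclin G1, 76.8 CPM. Their median in KK/HlJ ISO over sham was 0.28, with 12 of 20 positive, beside -0.82 for Cdkn1a and 0.06 over all genes. None of the 17 genes of p27 turnover and quiescence was called, with Gas6 at a mean of 618 CPM and Gas1 at 512 CPM. Of 21 imprinted genes other than Cdkn1c, 20 were tested and none was called. Their median in KK/HlJ ISO over sham was -0.06, with 8 of 20 positive, beside -1.25 for Cdkn1c. Of the imprinted genes, Cd81, a tetraspanin, averaged 823 CPM and the growth suppressor Ndn 193 CPM. The 8 E2F factors, of which 7 were tested, also had no call, with E2f4, a repressor in resting cells, at a mean of 40.7 CPM.

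The list of growth signals upstream of Ccnd1 held 24 genes, of which 23 were tested and none was called. Its immediate early genes, transcription factors induced within minutes of a stimulus, included Fosb at a mean of 2590 CPM, Egr1 at 2510 CPM, Junb at 2450 CPM and Fos at 1800 CPM. In sham C3H/HeJ against sham C57BL/6 the median of the list was -0.54 and 1 of 23 values was positive, where all genes had a median of -0.09 and Ccnd1 -2.95. In ISO the same pair had a median of 0.31 with 16 of 23 positive, where Ccnd1 had -1.4. In edgeR, 2 of the 23 had an unadjusted p under 0.05 in sham, against 770 of 15762 genes. In ISO 1 did, against 1035 genes. The share of positive values over all genes was not counted. The sham value of Ccnd1 is a description, since that level guided the choice of genes, and a link of the list to Ccnd1 was not tested.

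Markers of other cell types moved with the strain in part. The 12 pericyte and smooth muscle markers summed to 2470 to 3612 CPM in KK/HlJ, 1949 to 2436 CPM in C3H/HeJ and 1499 to 6043 CPM in C57BL/6 among the ISO libraries. In sham they summed to 2128 to 3198 CPM in KK/HlJ, 2458 to 3755 CPM in C3H/HeJ and 4407 to 7492 CPM in C57BL/6, none of them at 0 in any library. The 12 cardiomyocyte markers summed to 192.2 to 192.3 CPM in KK/HlJ sham, 162.5 to 167.5 CPM in C3H/HeJ sham and 311.5 to 376.7 CPM in C57BL/6 sham, with 6 of 12 at 0 in at least 1 library. For the 12 endothelial markers the sum was 551.2 to 834.4 CPM in KK/HlJ sham, 679.8 to 873.4 CPM in C3H/HeJ sham and 908.5 to 927.9 CPM in C57BL/6 sham, with 8 of 12 at 0 in at least 1 library. The 10 markers of Schwann cells and glia summed to 162 to 201.1 CPM in KK/HlJ sham, 167.5 to 202.4 CPM in C3H/HeJ sham and 216.3 to 229.6 CPM in C57BL/6 sham. In sham, C57BL/6 was thus highest without overlap for these 4 lists. The C57BL/6 sham libraries overlapped KK/HlJ for the mesothelial and epicardial markers. These summed to 185.6 to 359.1 CPM in KK/HlJ, 173.6 to 320.4 CPM in C3H/HeJ and 337.7 to 444.3 CPM in C57BL/6. The cardiac fibroblast, macrophage and monocyte, lymphocyte, and erythroid and platelet sums also overlapped. Of all genes, 22.1% were lower without overlap in KK/HlJ against C57BL/6 in sham, and 22.1% in C3H/HeJ against C57BL/6. In ISO libraries the endothelial sum was 688.6 to 1060 CPM in KK/HlJ, 540.8 to 1664 CPM in C3H/HeJ and 516.3 to 817.6 CPM in C57BL/6. The cardiomyocyte sum was 92.06 to 330 CPM in KK/HlJ, 127.3 to 535.8 CPM in C3H/HeJ and 140.1 to 409.1 CPM in C57BL/6. The sum of 8 mesothelial and epicardial markers was 109.8 to 465.1 CPM in KK/HlJ, 162.5 to 222.9 CPM in C3H/HeJ and 197.9 to 523.2 CPM in C57BL/6. The part of these cell types in the Ccnd1 result was not tested.

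Some reads of the 6 genes could not be assigned with certainty. Ccnd1 shares 1100 exon bases with LTO1 on the opposite strand, which is 21.6% of its runs of 50 bases, and LTO1 itself had 28 to 353 counts, in sum 9.69% of the Ccnd1 counts. Cdkn1c shares 24.9% of its runs of 50 bases with the antisense gene Gm44732, which had 0 to 12 counts. Ccnd3 shares 3.31% with Bysl on the opposite strand and 1.52% with the pseudogene Ccnd3-ps. Bysl itself had 167 to 891 counts, in sum 14.6% of the Ccnd3 counts. Cdkn1a shares 8.49% and Ccnd2 6.31% with any other gene, and Cdkn1b none. The libraries are labelled stranded, but the strand setting of the counting is not given in the sources used here, so these overlaps leave the levels uncertain by an unknown part.

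Across the 18 libraries, the 6 genes varied together only in part. On log2 CPM, Pearson's r was 0.664 between Ccnd2 and Cdkn1b, 0.657 between Cdkn1a and Cdkn1c, 0.591 between Ccnd1 and Cdkn1b and -0.427 between Ccnd3 and Cdkn1b, the lowest. The libraries share strains and treatments, so these are descriptions. Among 9787 genes with a mean of at least 5 CPM, the patterns most like that of Ccnd1 were those of Odc1 (r = 0.893), Manba (0.885) and Olfml2a (0.866). For Ccnd2 they were Fam114a2 (0.882), Pak2 (0.867) and Xist (0.856), and for Ccnd3 Mt1 (0.792), Arl4d (0.792) and Bok (0.772). For Cdkn1a they were Cdk11b (0.897) and Arl3 (0.874). For Cdkn1b they were Mier1 (0.863), Vps54 (0.847) and Prex2 (0.841), and for Cdkn1c Mettl1 (0.902), Zcchc17 (0.882) and Eef1d (0.878). Ccnd3, Cdkn1a and Cdkn1c each had their highest value in KK/HlJ sham replicate 1, at 327, 444 and 154 CPM. The highest values of Mt1, Cdk11b, Mettl1 and Eef1d, at 1460, 152, 153 and 512 CPM, were also in KK/HlJ sham. How far these correlations rest on 1 library was not tested.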

How the data were processed

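RNA was measured by RNA-seq in 18 libraries of Thy1+ heart cells, 2 in each of 9 groups. Cells were sorted straight into TRIzol LS, per the labels' protocols, and mRNA libraries, labelled stranded, gave single-end reads of 50 bases. Per the submitters' processing notes, STAR 2.5.3a, FastQC and edgeR were used on mm10, a genome that derives from C57BL/6, so reads of the other strains that carry variants can be lost. Not given in the sources used here are the annotation, the counter and whether counting used strand. The authors deposited raw counts per Ensembl gene, without normalization. Of 53342 identifiers, 53237 matched GENCODE M21, and the other 105 held 0.00159% of counts.

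The counts as deposited were tested with edgeR 4.0.16 in R 4.3.3 (TMM scaling, default filter on the 9 groups, robust quasi-likelihood fit). All 18 libraries entered 1 fit with a term per group, with 9 residual degrees of freedom. Benjamini-Hochberg adjustment ran over all 15762 genes in each of 14 comparisons, and a gene was called at an adjusted p under 0.05. Each SE comes from a fold change and its F statistic. Levels are CPM by effective library sizes, marker sums CPM by total counts, and totals ran from 7230741 to 26280685 counts. Reads carry no molecular identifiers. Alternatives used DESeq2 1.42.0, limma 3.58.1, RLE scaling, no filter, a replicate block, only the groups compared, and libraries left out. Removal of the 4 libraries least like the others, and offsets for length and GC content, were added after the data were seen. Scripts for the tests were checked on simulated counts.

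Replicates of a group differed far beyond sampling noise (chi-square per degree of freedom of 57.4 to 155), so none was merged. The 6 genes and the pathway and marker lists were chosen with earlier results of these data known. The genes named with values are the 6 members, the 3 genes most like each by correlation of log2 CPM (1 of them is not reported here), every list gene called, and list genes among the 5 of highest mean CPM. The exceptions are named as such. Coding sequences come from GENCODE M21 on GRCm38.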

Additional observations from a re-analysis of the deposited data

Results flagged for a closer look

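Set against the sham mean, the ISO values of Ccnd1 lay on opposite sides in KK/HlJ and C3H/HeJ. All 4 KK/HlJ ISO libraries, at 17.1 to 49.2 CPM, were below their strain's sham mean of 52.6 CPM, and all 4 C3H/HeJ ISO libraries, at 51.9 to 76.8 CPM, were above their sham mean of 25.5 CPM. The response of KK/HlJ minus that of C3H/HeJ was -1.93 on the log2 scale. The difference was not tested, since the C3H/HeJ sham level of Ccnd1 guided the choice of genes. The KK/HlJ sham mean averages 27.2 and 78.1 CPM, and 2 of 4 KK/HlJ ISO libraries were below both. Without KK/HlJ sham replicate 2 the KK/HlJ response was 0.3, the same direction as in C3H/HeJ. The difference was -0.98 without KK/HlJ sham replicate 2 and -2.51 without KK/HlJ sham replicate 1. The pattern was not particular to Ccnd1, the only gene screened for it. For Ccnd2, all 4 KK/HlJ ISO libraries, at 59.5 to 115 CPM, were below their sham mean of 120 CPM. All 4 C3H/HeJ ISO libraries of Ccnd2, at 59.9 to 130 CPM, were above their sham mean of 56.3 CPM. The share of all genes with this pattern was not counted.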

How the results depend on the processing

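With 2 libraries a group, 1 library can set the direction of a small change. Over the 84 fold changes of the 6 genes, 715 of 750 values under other settings kept their direction and side of the threshold. With 1 library left out, 1445 of 1512 did. Many of the latter left out a library that does not enter the comparison, which leaves the fold change nearly as it was. Most of the 84 were also not past the threshold as reported. The shares are thus high in part by construction and do not measure robustness. The fit without the library that stands apart enters both totals. Directions reversed at least 1 time in 40 of the 84, none of them past the threshold as reported. The cause of the changes was not tested.

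The number of the 6 genes called in C3H/HeJ against C57BL/6 among ISO libraries was 0 as reported and 1, Ccnd1, with DESeq2, with no filter, with limma voom, without the 4 libraries least like the others and with the offsets. In KK/HlJ against C57BL/6 in ISO it was 1 and became 0 without the library under the correlation of 0.82, and 0 to 1 with each library left out, while the Ccnd1 value stayed within -2.74 to -2.03. In C3H/HeJ against C57BL/6 in sham it was 1 (Ccnd1, a description, since that level guided the choice of genes) and became 0 with only the groups compared in the fit, and 0 to 1 with each library left out. In KK/HlJ against C57BL/6 in sham it was 0 and became 1 (Ccnd1) with no filter, where the median prior degrees of freedom was infinite. For ISO against sham in KK/HlJ it was 0, and 0 to 2 with each library left out.

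Without the 4 libraries least like the others, ISO over sham reversed to -0.02 for Ccnd1 and 0.16 for Cdkn1a averaged over strains, 0.29 for Cdkn1c in C3H/HeJ, and 0.25 for Ccnd2 and 0.59 for Cdkn1a in KK/HlJ. Day 21 over day 14 became -0.08 for Cdkn1c. KK/HlJ against C57BL/6 in sham became -0.22 for Ccnd2 and 0.09 for Cdkn1b. KK/HlJ against C3H/HeJ became -0.23 for Ccnd3 and -0.45 for Cdkn1a in sham and 0.12 for Ccnd2 in ISO. Response differences became 0.25 for Cdkn1c (C3H/HeJ minus C57BL/6), 0.09 for Ccnd2 and 0.93 for Cdkn1a (KK/HlJ minus C57BL/6), and 0.37 for Ccnd3 and 0.36 for Cdkn1a (KK/HlJ minus C3H/HeJ). With the offsets, ISO over sham became -0.17 for Ccnd2 and -0.07 for Cdkn1b averaged over strains, and -0.14 for Ccnd2, -0.01 for Cdkn1b and 0.08 for Cdkn1c in C3H/HeJ. Ccnd2 became 0.01 in C3H/HeJ against C57BL/6 in sham, 0.1 in KK/HlJ against C3H/HeJ in ISO and -0.42 in the response of C3H/HeJ minus C57BL/6. Cdkn1b became 0.15 in KK/HlJ against C57BL/6 in sham and -0.21 in the response of C3H/HeJ minus C57BL/6. With limma voom, Cdkn1c in C57BL/6 ISO over sham became -0.02. The median of all genes in KK/HlJ ISO over sham moved to 0.2 without the 4 libraries, and that of KK/HlJ against C57BL/6 in ISO to 0.13 with the offsets.

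With each library left out, values that changed direction ranged as follows. ISO over sham averaged over strains ran from -0.07 to 0.44 for Ccnd1, -0.59 to 0.06 for Cdkn1a and -0.1 to 0.42 for Cdkn1b. Day 21 over day 14 ran from -0.46 to 0.08 for Ccnd1, -0.23 to 0.02 for Cdkn1b and -0.06 to 0.29 for Cdkn1c. ISO over sham in KK/HlJ ran from -1.23 to 0.3 for Ccnd1 and -1.49 to 0.48 for Cdkn1a. In C3H/HeJ it ran from -0.11 to 0.23 for Cdkn1a, -0.15 to 1.42 for Cdkn1b and -0.76 to 0.28 for Cdkn1c. In C57BL/6 it ran from -0.68 to 0.3 for Ccnd1, -0.12 to 0.36 for Ccnd2, -0.07 to 0.17 for Ccnd3 and -0.26 to 0.24 for Cdkn1c. In sham, C3H/HeJ against C57BL/6 ran from -0.01 to 0.39 for Ccnd3, -1.52 to 0.05 for Cdkn1b and -0.66 to 0.39 for Cdkn1c. KK/HlJ against C57BL/6 ran from -0.22 to 0.46 for Ccnd2, -1.52 to 0.46 for Cdkn1a and -0.56 to 0.09 for Cdkn1b. KK/HlJ against C3H/HeJ ran from -0.04 to 0.54 for Ccnd3, -0.63 to 1.36 for Cdkn1a and -0.24 to 1.33 for Cdkn1b. In ISO, Ccnd2 ran from -0.58 to 0.03 in C3H/HeJ against C57BL/6 and from -0.4 to 0.17 in KK/HlJ against C3H/HeJ. Ccnd3 ran from -0.09 to 0.04 in KK/HlJ against C57BL/6 and Cdkn1c from -0.27 to 0.03 in KK/HlJ against C3H/HeJ. Response differences ran from -0.39 to 1.18 for Cdkn1b and -0.8 to 0.25 for Cdkn1c (C3H/HeJ minus C57BL/6). They ran from -0.97 to 0.57 for Ccnd1 and -1.15 to 0.82 for Cdkn1a (KK/HlJ minus C57BL/6), and from -0.35 to 0.23 for Ccnd3 and -1.55 to 0.43 for Cdkn1a (KK/HlJ minus C3H/HeJ).

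Counts over all genes moved far more than the members. Under other settings, and then with each library left out, the calls ran from 9 to 159 and 2 to 109 for ISO over sham averaged over strains (9 as reported), and from 0 to 8 and 0 to 215 for day 21 over day 14 (0 as reported). For ISO over sham they ran from 0 to 251 and 0 to 297 in KK/HlJ (0 as reported), 0 to 109 and 0 to 198 in C3H/HeJ (1 as reported), and 0 to 8 and 0 to 0 in C57BL/6 (0 as reported). In sham they ran from 2 to 140 and 3 to 64 for KK/HlJ against C57BL/6 (8), 4 to 137 and 8 to 151 for C3H/HeJ against C57BL/6 (16), and 2 to 338 and 6 to 119 for KK/HlJ against C3H/HeJ (24). In ISO they ran from 16 to 136 and 8 to 397 for KK/HlJ against C57BL/6 (22), 30 to 252 and 19 to 48 for C3H/HeJ against C57BL/6 (35), and 33 to 103 and 21 to 377 for KK/HlJ against C3H/HeJ (39). Response differences had at most 63 under other settings and at most 130 with a library left out, against 0 as reported.

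The replicate numbers did not pair the samples: over 36 pairs of groups, same-numbered libraries had correlations of their deviations from -0.14 to 0.16, with 9 over 0.1. With the replicate block no call among the 6 genes changed, and Ccnd1 in KK/HlJ against C57BL/6 in ISO was -2.39 (edgeR adjusted p = 0.0097). Calls over all genes were 15 for ISO over sham averaged over strains and 2 in C3H/HeJ with the block. Each of the 6 genes had at least 163 counts per library, and whether depth limited their values was not tested.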
